A study of Sus scrofa with 12 samples.

Results

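The genes described here encode translation initiation factors, elongation factors and aminoacyl-tRNA synthetases. They were taken by symbol: every probe set with a single symbol that starts with EIF or EEF, or that consists of one letter followed by ARS or ARS2, or that is EPRS. The annotation of the array gave 94 such probe sets for 61 genes, among 6765 genes with a single symbol. For each gene the probe set with the highest mean over the 12 arrays was used, and 59 of the 61 passed the filter on low intensities. The 2 that did not were NARS2 and VARS2, which encode mitochondrial synthetases for asparagine and valine tRNA and never exceeded 20.3 and 35.8 intensity units. The 59 comprised 42 translation factors and 17 synthetases.

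A tRNA synthetase joins an amino acid to its tRNA. Initiation factors bring the initiator tRNA, the mRNA cap and the small ribosomal subunit together and find the start codon, and elongation factors then deliver charged tRNAs and move the ribosome along. In skeletal muscle protein synthesis is fastest relative to body mass around birth in many mammals and slows with age, and its control through phosphorylation of eIF2 and release of eIF4E from its binding proteins leaves no direct trace in mRNA levels.

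The tissue was the longissimus dorsi, a large muscle that runs along the spine, and all animals were pigs of the Chinese Meishan breed under standard commercial feeding. One stage was fetal, at 65 days post coitus (dpc), and 3 followed birth, at 3, 60 and 120 days, so that expression could be followed as the muscle develops. Each stage had 3 arrays, labelled as biological replicates, and fetuses of one sow counted as 1 individual. No genotype, treatment or sex was given for any stage, and all stages share the breed. Total RNA was labelled and hybridized to the Affymetrix porcine array, so values are probe-set intensities on a linear scale. An intensity compares one probe set across arrays, and levels of different genes were not compared.

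Median intensity per array lay between 49.1 and 52.6. Summed markers of skeletal muscle were abundant on every array, with sums of 49529 to 53983 at 3 days and 55758 to 57243 at 120 days, against 27962 to 39466 in the fetus (8 of 9 markers on the array). Summed fibroblast and matrix markers ran the other way, with 3231 to 5363 at 3 days and 3552 to 5807 at 120 days, against 11509 to 19426 in the fetus (6 of 8). Of these 6, COL3A1 did not follow the sum (0.14 ± 0.23 at 3 days and 0.49 ± 0.23 at 120 days, not called). The other 5 log2 changes were below zero in both contrasts. Dividing-cell markers summed to 335 to 593 at 3 days and 264 to 266 at 120 days, against 1093 to 1898 in the fetus (4 of 7). The first actin control's 3-prime signal over its 5-prime signal, a ratio that rises as RNA is degraded or labelling shortens, was 2.45 ± 0.168 at 65 dpc, 3.61 ± 1.06 at 3 days, 5.10 ± 1.17 at 60 days and 5.08 ± 0.896 at 120 days (SD, n = 3 each). Other controls moved far less. The same ratio of a second actin control was 0.841 ± 0.0146 at 65 dpc and 0.903 ± 0.00512 at 120 days. That of the elongation factor control was 0.929 ± 0.0184 at 65 dpc and 1.12 ± 0.0161 at 120 days. For both, the means at 3 and 60 days lay in between. Actin ratios given below are those of the first control. Adipocyte markers summed to 1210 to 1683 at 3 days and 1374 to 2130 at 120 days, against 328 to 621 in the fetus (4 of 6). Endothelial markers summed to 1250 to 1340 at 3 days and 1226 to 1425 at 120 days, against 1493 to 2917 in the fetus (6 of 6), and erythroid ones to 677 to 789 and 648 to 725 at those stages, against 924 to 1610 in the fetus (3 of 6). Not every marker followed these 2 sums. In both contrasts 4 of the 6 endothelial and 2 of the 3 erythroid log2 changes were below zero. At 120 days TEK (endothelial, 0.70 ± 0.28) and ALAS2 (erythroid, 0.13 ± 0.22) were above zero and not called. Immune and nerve marker sums overlapped those of the fetus at both stages. Apart from the immune and nerve sums, these sums and the mean control ratios move with every contrast against the fetus described here, and their part in it was not tested. In whole muscle, fewer cells of a type and less RNA per cell cannot be told apart.

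Changes were tested on log2(intensity + 21) with limma over all 16167 probe sets that passed the filter, and a gene is called at a Benjamini-Hochberg adjusted p under 0.05. At 3 days against the fetus 17 of the 59 genes were called (28.8%), 12 higher and 5 lower. Over all probe sets tested, 43.0% were called in that comparison, 20.3% higher and 22.6% lower. At 120 days against the fetus 19 were called (32.2%), 10 higher and 9 lower, where 48.4% of all probe sets were called, 23.4% higher and 25% lower. In both comparisons the share called among the translation genes was below that of the whole array, and the difference between those shares was not tested. The 3 arrays of 3 days did not overlap the 3 of the fetus for 23 of 59 genes, where they did not for 53.0% of all probe sets, and those of 120 days did not for 23, where the share was 60.7%. Their median log2 change was 0.23 at 3 days against the fetus, beside -0.0005 over all probe sets, and 0.02 at 120 days against the fetus, beside 0.003.

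Between neighbouring stages, calls were made only from the fetus to day 3. The median absolute log2 change of the 59 genes was 0.39 there, 0.24 from 3 to 60 days and 0.22 from 60 to 120 days. Over all probe sets it was 0.43, 0.19 and 0.15. From 3 to 60 days 0 of 59 were called by limma (1.53% of all probe sets), and 8 had an unadjusted p under 0.05. From 60 to 120 days 0 were called, as for all probe sets (0%), and 4 of the 59 had an unadjusted p under 0.05 with limma, beside 1021 of the 16167. A moderated F test over the 4 stages called 21 of 59, where it called 46.9% of all probe sets. Intensities are relative to the array as a whole. When arrays were instead centred on the spiked hybridization controls, the median of all probe sets moved by -0.28 at 3 days and -0.43 at 120 days against the fetus. The calls among these genes were then 6 higher and 8 lower at 3 days, and 3 higher and 19 lower at 120 days, and the share of higher calls over the array was 19.0% in place of 47.3% and 14.2% in place of 48.3%. That centring turned the sign of 10 of the 59 estimates at 3 days and 19 at 120 days against the fetus, all to below zero, and quantile normalization turned 5 and 2. None of the turned estimates was called before or after. Directions below are relative to the array median.

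**Figure D1:**
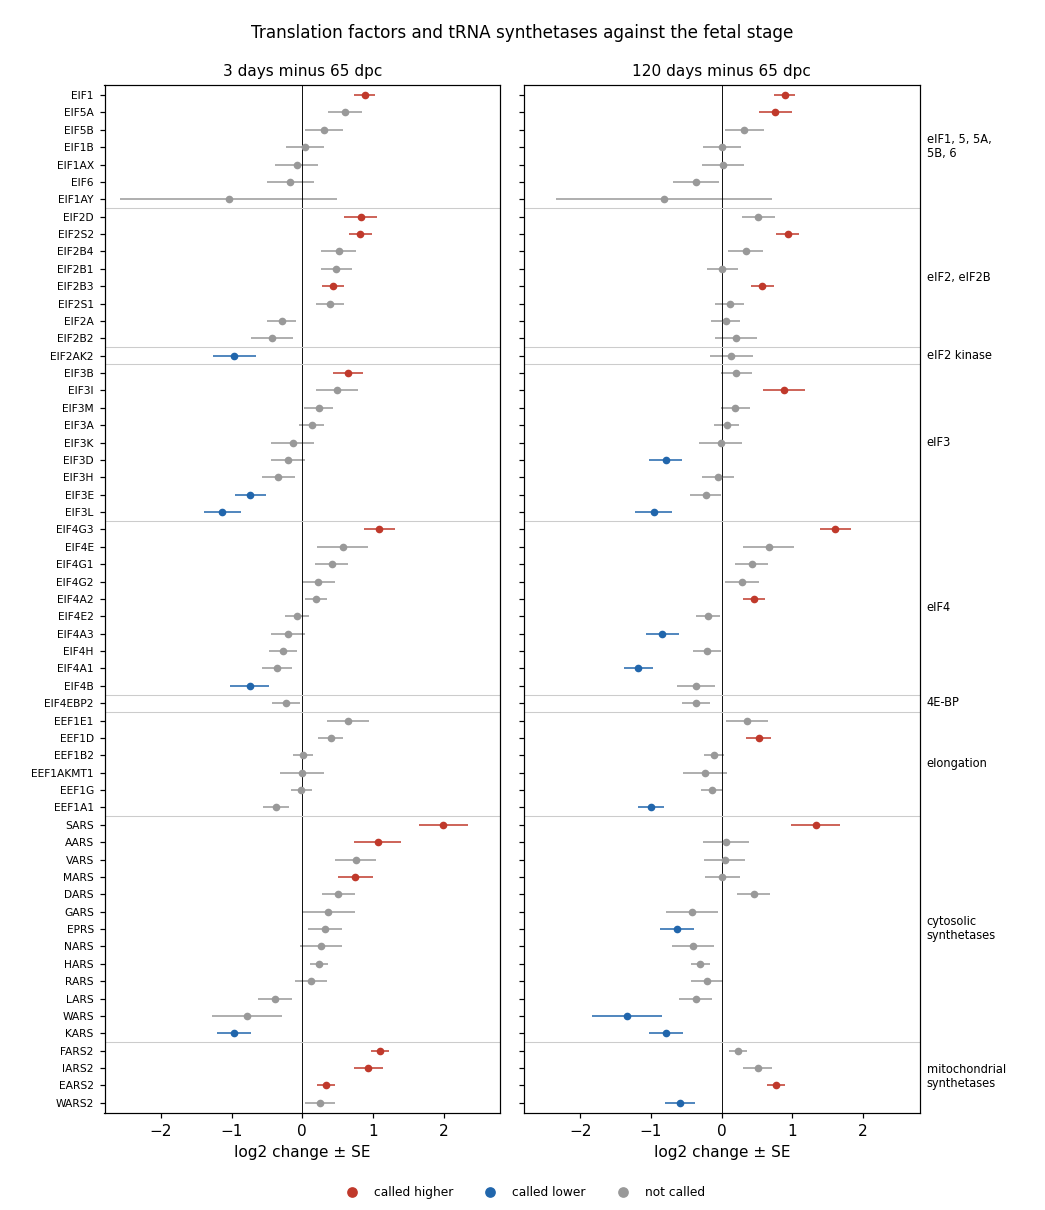
Log2 change of the 59 tested genes, 3 days minus 65 dpc on the left and 120 days minus 65 dpc on the right, grouped by role. Points are limma estimates with bars of 1 SE, in red where called higher, blue where called lower and grey where not called. SARS has the highest change at 3 days (2.0) and EIF4G3 at 120 days (1.61), while EIF1AY has the widest bar.

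Among the factors that recognize the start codon and join or release ribosomal subunits, EIF1 rose at 3 days and the other 6 were not called. EIF1 keeps the scanning ribosome from starting at wrong codons. It read 2712, 2879 and 3246 at 65 dpc, 5612, 4970.5 and 5718 at 3 days, 4367, 6064 and 5649 at 60 days and 5299.9, 5369.5 and 5754 at 120 days. Every array after birth was above every fetal array, with a log2 change of 0.88 ± 0.15, adjusted p = 0.000693 at 3 days and 0.89 ± 0.15, adjusted p = 0.000459 at 120 days against the fetus. Its second probe set was called higher in the same contrasts. EIF5A, a factor that carries the amino acid hypusine and helps ribosomes through difficult peptide bonds, read 1761, 1378 and 1594 at 65 dpc, 2620.4, 2287 and 2301 at 3 days, 1331, 2356 and 2849.7 at 60 days and 2594, 2710.4 and 2716 at 120 days. One 60-day array was below the fetal ones, and the 120-day arrays were the closest together. EIF5A was called higher at 120 days against the fetus (0.76 ± 0.24, adjusted p = 0.0198) and not at 3 days (0.60 ± 0.24, adjusted p = 0.058). That call was lost without fetal replicate 2 or 120-day replicate 2 or 3 (log2 change between 0.67 and 0.75, adjusted p between 0.0546 and 0.0642), with quantile normalization (adjusted p = 0.0906) and with centring on the hybridization controls (adjusted p = 0.224). A second, dimmer EIF5A probe set was called higher in both, with log2 changes of 1.55 ± 0.35 at 3 days and 1.46 ± 0.35 at 120 days. EIF1B, EIF5B, which joins the ribosomal subunits, EIF6, which keeps the large subunit from joining too early, and EIF1AX had log2 changes between -0.17 ± 0.33 and 0.30 ± 0.27 at 3 days.

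The eIF2 group delivers the initiator tRNA, and eIF2B recharges eIF2 with GTP. Of the 8 genes measured, 3 rose at 3 days against the fetus (EIF2D, EIF2S2 and EIF2B3) and 0 fell. Over all probe sets 20.3% were called higher there and 22.6% lower. At 120 days 2 rose (EIF2S2 and EIF2B3), and all 8 estimates were above zero, with a median of 0.27. With centring on the hybridization controls 3 of the 8 were above zero at 120 days, the median was -0.16, and EIF2S2 was the single call left there. EIF2S2, the beta subunit of eIF2, read 1304, 1181 and 1239.96 at 65 dpc, 2058, 1950.4 and 2684 at 3 days, 2538, 2921 and 2571 at 60 days and 2384, 2442 and 2327 at 120 days. The 3 fetal arrays lay within a narrow band, and every later array was above it. Its log2 change was 0.82 ± 0.16, adjusted p = 0.00189 at 3 days and 0.93 ± 0.16, adjusted p = 0.000643 at 120 days. EIF2B3, the gamma subunit of eIF2B, read 110.5, 87.2 and 89.6 at 65 dpc, 113, 135 and 165 at 3 days, 171, 176 and 148 at 60 days and 159, 149 and 149 at 120 days. Each array of 60 and 120 days was above all fetal ones, by 0.57 ± 0.16, adjusted p = 0.0104 at 120 days, a call that centring on the hybridization controls ended (log2 change 0.14, adjusted p = 0.58). The change at 3 days (0.44 ± 0.16, adjusted p = 0.0425) was lost without fetal replicate 2 or 3 or 3-day replicate 2 or 3 or 120-day replicate 1, 2 or 3 (log2 change between 0.31 and 0.44, adjusted p between 0.0562 and 0.148). That centring ended the 3-day call too (0.15, adjusted p = 0.567). EIF2D, which can place tRNAs on the ribosome without GTP and acts in ribosome recycling, read 81.2, 116 and 103 at 65 dpc, 187, 198 and 193 at 3 days, 198, 306 and 132 at 60 days and 150.2, 149.7 and 154 at 120 days. All 3-day arrays stood above all fetal ones (0.83 ± 0.23, adjusted p = 0.0131), and the call was lost without fetal replicate 1 (log2 change 0.71, adjusted p = 0.052). It was also lost with centring on the hybridization controls (0.55, adjusted p = 0.11). EIF2S1, the alpha subunit whose phosphorylation slows initiation, read 573, 557 and 674 at 65 dpc, 742, 659.6 and 1013 at 3 days, 715, 900 and 687 at 60 days and 644, 624 and 680.4 at 120 days. It was called in neither contrast with the fetus (0.39 ± 0.20, adjusted p = 0.14 at 3 days, and 0.11 ± 0.20, adjusted p = 0.675 at 120 days). Centring on the hybridization controls turned the 120-day value to -0.32. EIF2A, EIF2B1, EIF2B2 and EIF2B4 were also not called, with 3-day estimates between -0.43 ± 0.30 and 0.52 ± 0.25. A second EIF2A probe set was called higher at 60 days against 3 days (0.84 ± 0.17, adjusted p = 0.0284), which the brighter one was not (0.51 ± 0.21, adjusted p = 0.251).

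EIF2AK2 encodes PKR, a kinase of eIF2 that is activated by double-stranded RNA and induced by interferon. It read 74.4, 75.6 and 155 at 65 dpc, 28.2, 41.9 and 50 at 3 days, 113, 74.7 and 100.4 at 60 days and 74, 87.9 and 186 at 120 days. The 3-day arrays were the lowest of all 12 and did not overlap any other stage, while 1 fetal and 1 120-day array were far above the rest of their stages. It fell at 3 days against the fetus (-0.96 ± 0.30, adjusted p = 0.0232), a call lost without fetal replicate 3 or 3-day replicate 1 or 2 (log2 change between -0.99 and -0.67, adjusted p between 0.0503 and 0.0881). ISG15, an interferon-induced gene looked at after these values were seen, read 45.5, 13.7 and 349 at 65 dpc, 39, 60.5 and 51.8 at 3 days, 43.4, 233 and 515 at 60 days and 270.01, 258 and 1406 at 120 days. The 2 outlying EIF2AK2 arrays were also the highest of their stage for ISG15. Of 11 interferon-induced genes looked for then, 8 were on the array, and those 2 arrays were the highest of their stage for 8 and for 6 of them. They were so for 35.5% and 37.9% of all probe sets. The 3-day arrays, lowest for EIF2AK2, were all below the fetal ones for 1 of the 8 and all above them for 2, which included IFIT2 (105 to 175 at 3 days, against 36.1 to 103 in the fetus). Of all 16167 probe sets they were all below for 4255 and all above for 4310. The part of an interferon response in the EIF2AK2 values was not tested. EIF2AK3 was not analysed here.

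Subunits of eIF3, the large scaffold between the ribosome and the other initiation factors, moved in both directions. Of 9 measured, 1 rose and 2 fell at 3 days, and 1 rose and 2 fell at 120 days against the fetus. Of all probe sets 43.0% were called at 3 days and 48.4% at 120 days. EIF3L read 1209.8, 1559 and 1184 at 65 dpc, 421, 613 and 773 at 3 days, 742, 947 and 551 at 60 days and 781, 579 and 632 at 120 days. All 9 arrays after birth lay below the 3 fetal arrays, with a log2 change of -1.13 ± 0.26, adjusted p = 0.00484 at 3 days and -0.97 ± 0.26, adjusted p = 0.0096 at 120 days. EIF3E, another subunit, read 2319, 3163 and 3037 at 65 dpc, 1297, 1816 and 2018 at 3 days, 2392, 3277 and 2179 at 60 days and 2556, 2539.99 and 2132 at 120 days. It was low on the 3-day arrays alone (-0.74 ± 0.22, adjusted p = 0.0172) and overlapped the fetal range again at 60 and 120 days (-0.23 ± 0.22, adjusted p = 0.408 at 120 days). The 3-day call was lost without fetal replicate 2 or 3-day replicate 1 (log2 change between -0.65 and -0.55, adjusted p between 0.0577 and 0.0806). EIF3D, which can itself bind the cap of some mRNAs, read 435, 549 and 568 at 65 dpc, 329, 419 and 629 at 3 days, 322, 416 and 293 at 60 days and 303, 284 and 277 at 120 days. Its 120-day arrays were all below its fetal arrays (-0.79 ± 0.24, adjusted p = 0.0158), and 1 of its 3-day arrays was above them. EIF3I read 659, 287 and 414 at 65 dpc, 568, 624 and 642 at 3 days, 407, 781 and 511 at 60 days and 748, 734 and 967 at 120 days. The fetal arrays spread widely, and the call at 120 days (0.88 ± 0.30, adjusted p = 0.0271) was lost without fetal replicate 2 or 3 or 120-day replicate 3 (log2 change between 0.61 and 0.86, adjusted p between 0.0582 and 0.112). It was also lost with centring on the hybridization controls (0.45, adjusted p = 0.22). EIF3B, a core subunit, was called higher at 3 days (0.65 ± 0.21, adjusted p = 0.0287), and the call was lost without fetal replicate 1 or 3 or 3-day replicate 1 or 3 (log2 change between 0.48 and 0.62, adjusted p between 0.0699 and 0.104). With centring on the hybridization controls it was lost as well (0.36, adjusted p = 0.277). EIF3A, EIF3H, EIF3K and EIF3M were not called, although a second and dimmer EIF3M probe set was called lower at 3 days (-1.25 ± 0.45) and at 120 days (-1.93 ± 0.45).

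The 5 genes that fell at 3 days shared an order within that stage, which many other genes showed too. EIF3L, KARS, EIF2AK2, EIF4B and EIF3E were each lowest on replicate 1, intermediate on replicate 2 and highest on replicate 3. So were 4 of the 12 that rose (SARS, AARS, MARS and EIF2B3), 28 of all 59 genes (47.5%) and 24.9% of all probe sets. The actin 3-prime to 5-prime ratios of those arrays were 4.69, 3.56 and 2.58. Over the 60-day arrays, with actin ratios of 6.18, 5.27 and 3.85, EIF3L and EIF3E were highest on replicate 2 and EIF4B was lowest on replicate 3. The part of RNA quality in these values was not tested.

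The eIF4 factors bind the cap and unwind the leader of the mRNA. Of 10 measured, 1 rose and 1 fell at 3 days, and 2 rose and 2 fell at 120 days against the fetus. The shares of all probe sets called were 43.0% and 48.4%. EIF4G3, one of the scaffolds that link the cap to the ribosome, read 159, 139.9 and 115 at 65 dpc, 378, 329.8 and 251 at 3 days, 432, 335 and 554 at 60 days and 504, 455 and 425 at 120 days. No array after birth overlapped the fetal ones. It rose by 1.09 ± 0.22, adjusted p = 0.00227 at 3 days and 1.61 ± 0.22, adjusted p = 0.000139 at 120 days, and neither call was lost when any single array was left out. The scaffolds EIF4G1 and EIF4G2 were not called at 120 days (0.42 ± 0.23, adjusted p = 0.155 and 0.29 ± 0.24, adjusted p = 0.332), though a second EIF4G1 probe set was called higher in both contrasts with the fetus (0.56 ± 0.13 at 3 days).

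The 2 eIF4A helicases were called in opposite directions at 120 days. EIF4A1 read 672, 551 and 531 at 65 dpc, 465, 428 and 455 at 3 days, 284, 338 and 354 at 60 days and 298, 274 and 179.5 at 120 days. Its stage means stepped down with stage, and every array after birth lay below every fetal array (-1.18 ± 0.21, adjusted p = 0.000703 at 120 days). The 60- and 120-day arrays overlapped each other, and EIF4A1 was not called at 3 days. EIF4A2, a close relative, read 3044, 4308 and 3048 at 65 dpc, 4092, 3536 and 4123 at 3 days, 5094, 5168 and 4690.04 at 60 days and 4477, 4747 and 4854 at 120 days. The 60- and 120-day arrays were the highest, above the single high fetal array. Its call at 120 days (0.45 ± 0.15, adjusted p = 0.029) was lost without fetal replicate 1 or 3 or 120-day replicate 1, 2 or 3 (log2 change between 0.37 and 0.49, adjusted p between 0.0534 and 0.105), with quantile normalization and with centring on the hybridization controls. EIF4A3, a relative that marks exon junctions, read 1120.2, 1529 and 907 at 65 dpc, 915, 823 and 1347 at 3 days, 731, 907 and 789 at 60 days and 684, 618 and 612 at 120 days. All 120-day arrays were below all fetal arrays (-0.84 ± 0.24, adjusted p = 0.0114), and the 3-day arrays overlapped the fetal range.

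EIF4B, which stimulates the helicase, read 1137, 1781 and 1238 at 65 dpc, 589, 798 and 1091 at 3 days, 1433, 1448 and 998 at 60 days and 1220.3, 1128 and 841 at 120 days. Its 3-day arrays were all below the fetal ones and gave the lowest stage mean, although replicate 3 of 60 days and of 120 days read below the highest of them. It overlapped the fetal range at 60 days. The fall at 3 days (-0.75 ± 0.27, adjusted p = 0.0415) was lost without fetal replicate 2 or 3 or 3-day replicate 1 or 2 or 120-day replicate 1 or 2 (log2 change between -0.81 and -0.53, adjusted p between 0.0526 and 0.168). EIF4E, the cap-binding protein, read 166, 200.4 and 78.5 at 65 dpc, 208, 261 and 186 at 3 days, 295, 143 and 425 at 60 days and 246, 272 and 187 at 120 days. Its arrays spread widely at 65 dpc and at 60 days, and it was not called (0.57 ± 0.36, adjusted p = 0.221 at 3 days, and 0.66 ± 0.36, adjusted p = 0.147 at 120 days). EIF4E2, EIF4H and EIF4EBP2, a repressor that holds eIF4E away from the scaffolds, were not called in these contrasts. For EIF4EBP2 the brightest probe set gave -0.37 ± 0.20, adjusted p = 0.142 at 120 days, while 2 of its 3 other tested probe sets were called lower (-0.66 ± 0.24 and -0.50 ± 0.15). EIF4EBP1 was not analysed here.

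**Figure D2:**
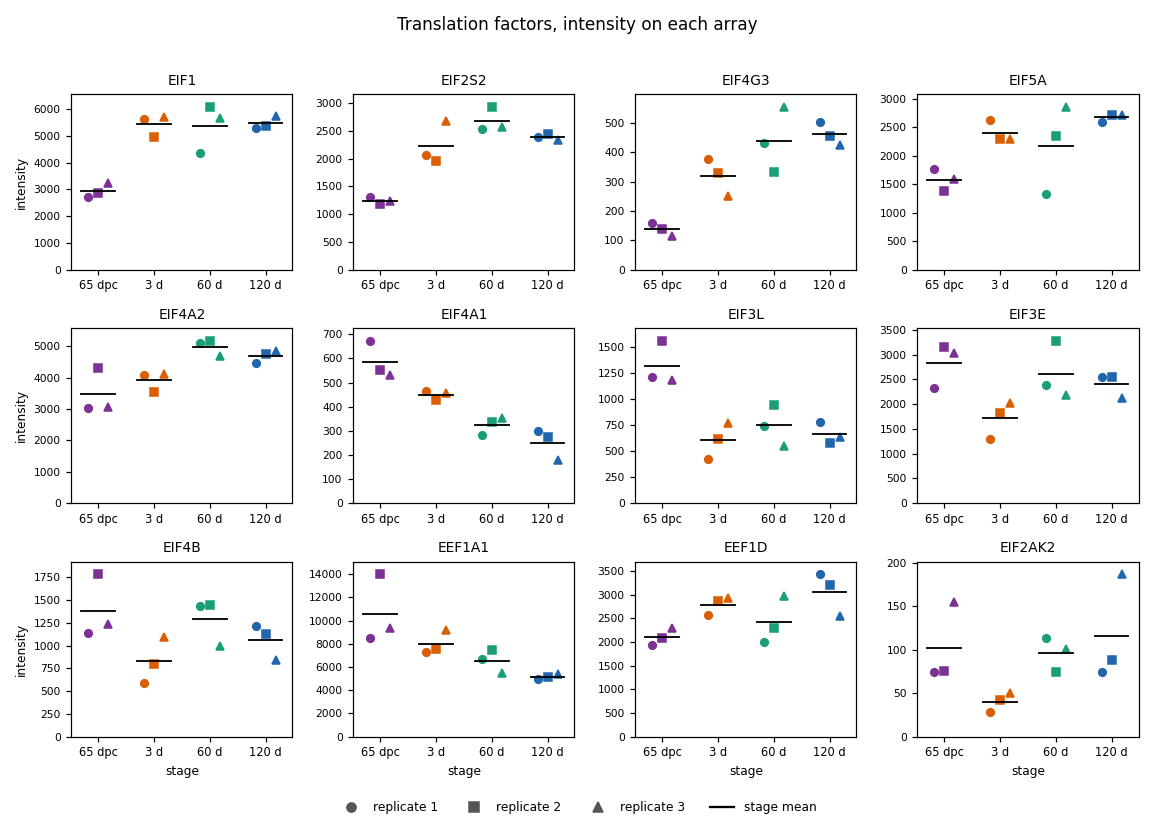
Intensity of 12 translation factors on each of the 12 arrays, by stage from 65 dpc to 120 days, on linear axes that start at 0. Symbols mark the replicate and black bars the mean of 3 arrays. EIF1, EIF2S2 and EIF4G3 are higher on all arrays after birth than on the fetal arrays, EIF4A1 and EEF1A1 decline with stage, and EIF3E and EIF4B have their lowest stage means at 3 days.

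Of 6 elongation factor genes 0 were called at 3 days by limma, and at 120 days against the fetus EEF1A1 fell and EEF1D rose. EEF1A1 brings charged tRNAs to the ribosome. In rodent muscle a second gene, EEF1A2, takes over from it after birth, and EEF1A2 and EEF2 were not analysed here. EEF1A1 read 8506, 13978 and 9354 at 65 dpc, 7342, 7555 and 9153 at 3 days, 6684, 7455 and 5501 at 60 days and 4977, 5138 and 5367 at 120 days. No 120-day array overlapped a fetal one, and the log2 change was -1.0 ± 0.18, adjusted p = 0.000863. The step at 3 days was not called (-0.38 ± 0.18, adjusted p = 0.115).

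The probe sets of EEF1A1 did not move together. The values above are from the array's own elongation factor control, of which the 3-prime and 5-prime partners also declined with stage, with 4385 to 4827 and 3844 to 4351 at 120 days, against 7321 to 11410.5 and 7786 to 12167 in the fetus. A further probe set, reading 28.8 to 37.4 at 120 days against 85.2 to 194 in the fetus, was called lower at 3 days (-0.79 ± 0.28, adjusted p = 0.0376) and at 120 days (-1.54 ± 0.28). The other 2 were called higher at 3 days (0.72 ± 0.22 and 0.83 ± 0.18), at intensities of 85.9 to 228 against 38.0 to 146 in the fetus. With the mean of all 4 the 3-day change of EEF1A1 was 0.094, and the 120-day call was lost (adjusted p = 0.0983). EEF1A belongs to a family with near-identical copies, and cross-hybridization was not tested.

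Of the subunits of the factor that reloads eEF1A with GTP, EEF1D was called and the others were not. EEF1D read 1945, 2082 and 2300.5 at 65 dpc, 2573, 2855 and 2935 at 3 days, 2009, 2289.9 and 2971 at 60 days and 3424, 3194 and 2541 at 120 days. All 120-day arrays exceeded all fetal ones (0.52 ± 0.18, adjusted p = 0.0317), and the call was lost without fetal replicate 1 or 2 or 120-day replicate 1 or 2 (log2 change between 0.43 and 0.51, adjusted p between 0.0624 and 0.119). Quantile normalization (log2 change 0.23, adjusted p = 0.328) and centring on the hybridization controls (0.087, adjusted p = 0.7) ended it too. Its partners EEF1B2 and EEF1G were not called, with estimates of 0.01 ± 0.14 and -0.01 ± 0.14 at 3 days and -0.11 ± 0.14 and -0.14 ± 0.14 at 120 days. EEF1E1, which sits in the complex of tRNA synthetases, and EEF1AKMT1, which methylates eEF1A, were not called either (0.64 ± 0.30 and -0.01 ± 0.31 at 3 days).

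The cytosolic tRNA synthetases supply charged tRNAs for all nuclear-coded protein made outside mitochondria. Of 13 measured, 3 rose at 3 days against the fetus (SARS, AARS and MARS) and 1 fell (KARS), with a median log2 change of 0.32. At 120 days 1 rose (SARS) and 3 fell (WARS, KARS and EPRS), and the median was -0.30. The shares of all probe sets called were 43.0% at 3 days and 48.4% at 120 days. Under centring on the hybridization controls those medians were 0.04 and -0.74.

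SARS charges serine tRNA. It read 149, 159 and 161 at 65 dpc, 440.2, 509 and 1431 at 3 days, 679, 570.4 and 761 at 60 days and 416, 449.8 and 407 at 120 days. The fetal arrays were close to each other and every later array was far above them. The rise was 2.0 ± 0.34, adjusted p = 0.000773 at 3 days, the largest among the 59 genes, and 1.33 ± 0.34, adjusted p = 0.00718 at 120 days. Its second probe set was called higher in both. Neither call was lost without any single array, while centring on the hybridization controls ended the one at 120 days.

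AARS, for alanine, read 301, 397 and 278 at 65 dpc, 476, 513 and 1365 at 3 days, 553, 618 and 636 at 60 days and 341, 356 and 311 at 120 days. The 3- and 60-day arrays were all above the fetal ones, and the 120-day arrays were within the fetal range. It rose at 3 days (1.06 ± 0.33, adjusted p = 0.0204) and was not called at 120 days (0.06 ± 0.33, adjusted p = 0.899), where the estimate was -0.042 without fetal replicate 3 and -0.38 with centring on the hybridization controls. The 3-day call was lost without fetal replicate 1 or 3 (log2 change between 0.97 and 1.02, adjusted p between 0.0553 and 0.0563). Without 3-day replicate 3, the highest array, the estimate was 0.59 (adjusted p = 0.0435), and centring on the hybridization controls ended the call (0.78, adjusted p = 0.0894). MARS, for methionine, had a log2 change of 0.75 ± 0.25, adjusted p = 0.0275 at 3 days, which was lost without fetal replicate 1 or 3 or 3-day replicate 3 (log2 change between 0.56 and 0.74, adjusted p between 0.0633 and 0.099). The same centring ended that call too (0.47, adjusted p = 0.217).

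KARS, which charges lysine tRNA and also serves mitochondria, read 2486, 4059 and 2575 at 65 dpc, 1143, 1546 and 1929 at 3 days, 2233, 2130.3 and 1564 at 60 days and 1833, 1675 and 1619 at 120 days. All 9 arrays after birth were below the 3 fetal ones. Its log2 change was -0.97 ± 0.24, adjusted p = 0.00753 at 3 days and -0.79 ± 0.24, adjusted p = 0.0182 at 120 days, the second call being lost without fetal replicate 2 or 120-day replicate 2 or 3 (log2 change between -0.77 and -0.56, adjusted p between 0.0525 and 0.0746).

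WARS, for tryptophan, is induced by interferon gamma. It read 133, 174 and 768 at 65 dpc, 113, 113 and 236 at 3 days, 118, 209.9 and 117 at 60 days and 99.2, 82.3 and 95.7 at 120 days. Fetal replicate 3 was far above the other 11 arrays, and all 3 WARS probe sets were highest there. The call at 120 days against the fetus (-1.34 ± 0.50, adjusted p = 0.0402) was lost without fetal replicate 3 or 120-day replicate 1, 2 or 3 (log2 change between -1.39 and -0.61, adjusted p between 0.0753 and 0.118). GBP1 and IRF1, 2 of the interferon-induced genes looked at after these values were seen, read 1692 and 1211 on that array. On the other fetal arrays GBP1 read 14.6 and 26.5, and IRF1 read 44.1 and 48.5. All 8 of those genes were highest of the fetal arrays there, as were 35.5% of all probe sets, and their part in the WARS values was not tested.

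EPRS, a fused synthetase for glutamate and proline, read 335, 449.7 and 277 at 65 dpc, 445, 351 and 539 at 3 days, 433, 288 and 278 at 60 days and 228, 229 and 194 at 120 days. The 120-day arrays were the lowest 3 of all 12. Its call at 120 days (-0.63 ± 0.24, adjusted p = 0.0452) was lost without fetal replicate 1 or 2 or 3-day replicate 1 or 120-day replicate 1, 2 or 3 (log2 change between -0.67 and -0.45, adjusted p between 0.0584 and 0.161), and its other 2 probe sets were not called there. GARS, for glycine, read 469, 815 and 459 at 65 dpc, 462, 539 and 1535 at 3 days, 727, 643 and 659 at 60 days and 416, 424 and 401 at 120 days. One 3-day array was far above the rest and the other 2 were within the fetal range, and the 3-day estimate of 0.37 ± 0.37, adjusted p = 0.449 turned to -0.16 without 3-day replicate 3. DARS, HARS, LARS, NARS, RARS and VARS were called in neither contrast, with 3-day estimates between -0.39 ± 0.24 and 0.75 ± 0.29.

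**Figure D3:**
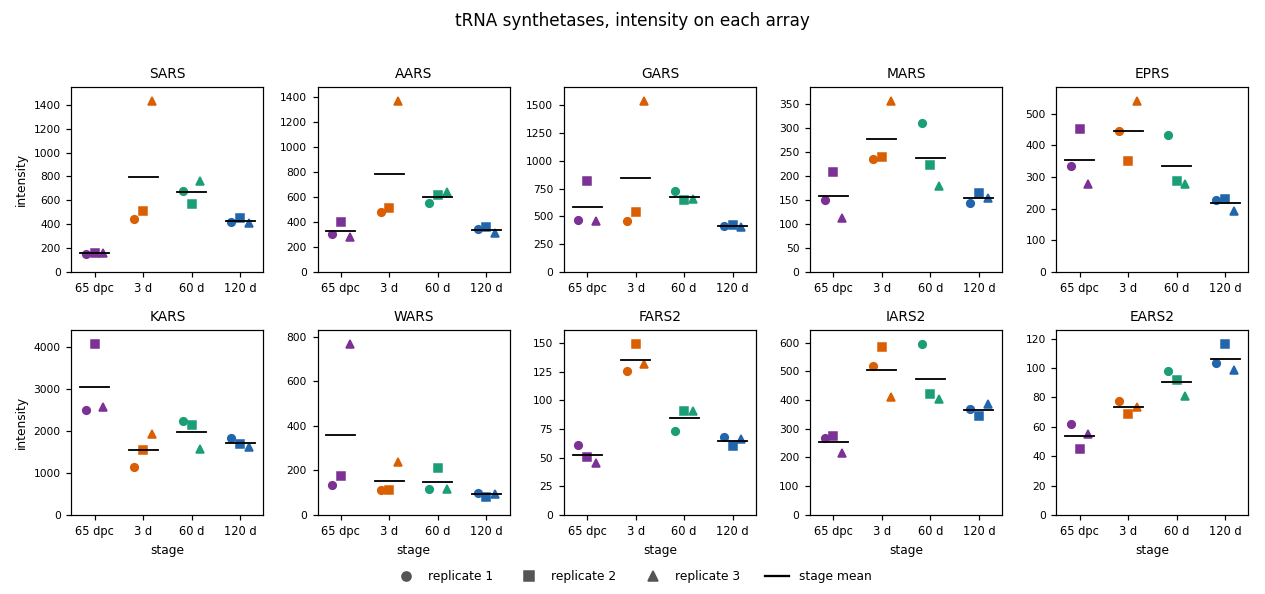
Intensity of 7 cytosolic and 3 mitochondrial tRNA synthetases on each of the 12 arrays, by stage from 65 dpc to 120 days, on linear axes that start at 0. Symbols mark the replicate and black bars the mean of 3 arrays. SARS, AARS and GARS are far higher on 3-day replicate 3 than on the other 3-day arrays, WARS is highest on fetal replicate 3, and FARS2 is highest on all 3-day arrays.

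One 3-day array was high for the cytosolic synthetases and for several other groups of these genes. Replicate 3 was the highest of the 3 arrays for 12 of the 13 cytosolic synthetases, where it was the highest for 41.3% of all probe sets. It exceeded the mean of the other 2 on the log2 scale by 0.53 in the median synthetase, against 0.01 for the median of all probe sets, and by at least 0.5 in 7 of 13 (53.8%), against 10.1% of all probe sets. Of all 59 translation genes, 43 (72.9%) were highest on that array. So were 8 of 9 eIF3 genes, 7 of 8 in the eIF2 and eIF2B group and 5 of 6 elongation factor genes. Their median excess was 0.42, 0.42 and 0.21. For the eIF4 factors it was 5 of 10, with a median excess of 0.07, and the 4 mitochondrial synthetases showed no such excess (median -0.02). Fetal replicate 2, in the baseline of every contrast with the fetus, was the highest of its stage for 10 of the 13 cytosolic synthetases. That was 76.9%, beside 42.4% of all probe sets. Their median log2 deviation from the stage mean was 0.29 on that fetal array and 0.35 on 3-day replicate 3.

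Of 15 tested genes of the amino acid response, 9 were also highest of the 3-day arrays on replicate 3 (60%, beside 41.3% of all probe sets). Its transcription factor ATF4 is known to switch on many synthetase genes when amino acids run short. ATF4 read 941, 978 and 1055 at 65 dpc, 1771, 1380.4 and 2878 at 3 days, 3621, 3274 and 3252 at 60 days and 4072, 3499 and 4839.9 at 120 days. PSAT1, a serine synthesis enzyme, read 191, 325 and 785 at 3 days, and ASNS, asparagine synthetase, read 1193, 1371 and 2566 at 3 days. The third array was the highest of the 3 for each, whereas ATF3 (1792, 2536 and 225 at 3 days) and PSPH, another serine synthesis enzyme (335, 230.2 and 123 at 3 days), were lowest there. Over the whole series ATF4 was highest at 120 days, where the cytosolic synthetases were not. The part of this response in the synthetase values was not tested.

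**Figure D4:**
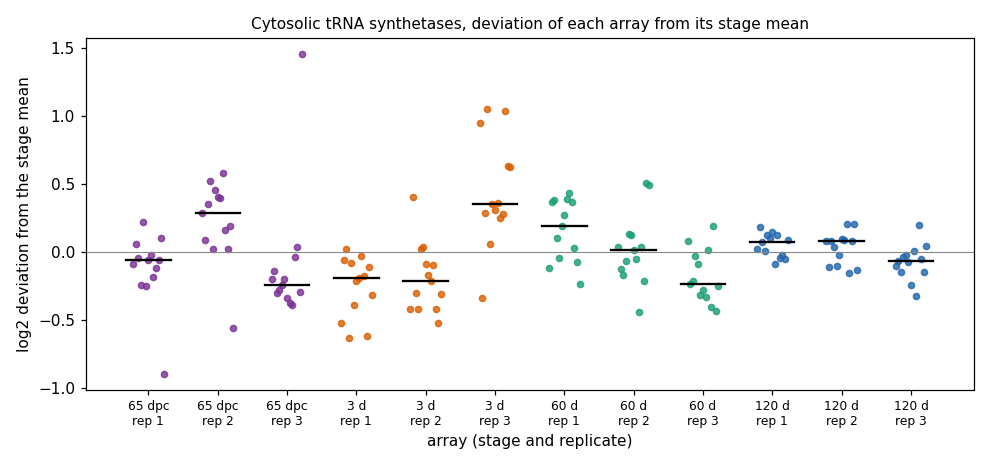
Log2 deviation of each of 13 cytosolic tRNA synthetases from the mean of its stage, for each array in stage order. Points are genes and black bars the median of the 13 on that array. 3-day replicate 3 has the highest median (0.35) and fetal replicate 2 the next highest (0.29).

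After day 3 no synthetase was called, and the cytosolic ones shared a direction at the last step. From 60 to 120 days all 13 had estimates below zero, with a median of -0.54, where the median of all probe sets was -0.01. All 13 were also below zero with quantile normalization and with centring on the hybridization controls. The estimates ran from -0.80 ± 0.33 for AARS to -0.15 ± 0.13 for HARS, and the lowest adjusted p was 0.774. In 7 of the 13 the 3 arrays at 120 days lay below the 3 at 60 days, where 7.53% of all probe sets did so. Stage means were of linear intensities. They include 3-day replicate 3, which was the highest of its stage for 12 of the 13, and the counts were not repeated without it. By these means, 8 of the 13 were highest at 3 days and 0 at 120 days, while 7 were lowest at 120 days. Over all probe sets 21.2% were highest at 3 days and 22.1% at 120 days, while 25.8% were lowest at 120 days. Of the 42 translation factors 26 also had estimates below zero at that step, with 0 called.

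Mitochondrial synthetases charge tRNAs for the few proteins made inside the organelle. Of 4 tested, 3 rose at 3 days against the fetus and 0 fell, and the median log2 change was 0.64. Over all probe sets 20.3% were called higher there and 22.6% lower. Under centring on the hybridization controls 2 rose at 3 days, with a median of 0.36. The 120-day median was then -0.06 in place of 0.37. FARS2, for phenylalanine, read 61.2, 50.7 and 45.1 at 65 dpc, 126, 149 and 132 at 3 days, 72.9, 91 and 90.8 at 60 days and 67.9, 60 and 66.5 at 120 days. Its 3-day arrays were the highest of all 12 and well apart from the others. It rose by 1.1 ± 0.13, adjusted p = 7.96e-05 at 3 days, the lowest adjusted p of the 59 genes. From 3 to 60 days its estimate was -0.56 ± 0.13, adjusted p = 0.0548, which passed the threshold with quantile normalization, with a pseudocount of 51 and with centring on the hybridization controls. At 120 days it was not called against the fetus (0.23 ± 0.13, adjusted p = 0.164).

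IARS2, for isoleucine, read 267, 275 and 215 at 65 dpc, 517, 585 and 410.3 at 3 days, 595, 421 and 405 at 60 days and 369, 344 and 386 at 120 days. All arrays after birth were above the fetal ones, and it rose at 3 days (0.93 ± 0.21, adjusted p = 0.00379) but missed the threshold at 120 days (0.51 ± 0.21, adjusted p = 0.0601). EARS2, for glutamate, read 61.7, 45 and 55.2 at 65 dpc, 77.8, 69 and 73.7 at 3 days, 98.3, 91.7 and 80.9 at 60 days and 103, 116 and 98.4 at 120 days. It was highest at 120 days, with no overlap with the fetus (0.76 ± 0.13, adjusted p = 0.000462). Its smaller 3-day change (0.34 ± 0.13, adjusted p = 0.0473) was lost in 9 of the 12 fits that each left out 1 array. With centring on the hybridization controls it was 0.058 (adjusted p = 0.814). WARS2, for tryptophan, read 83.8, 58.9 and 77.2 at 65 dpc, 80.8, 83.1 and 108 at 3 days, 48.5, 93.6 and 56.2 at 60 days and 36.3, 31.3 and 60 at 120 days. The 120-day arrays were low and 1 of them overlapped the lowest fetal array. Its call at 120 days (-0.59 ± 0.21, adjusted p = 0.0374) was lost without fetal replicate 1 or 3 or 120-day replicate 1 or 2 (log2 change between -0.55 and -0.46, adjusted p between 0.0815 and 0.144).

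Genes outside the symbol rule that act beside these synthetases rose at 3 days. All 4 tested genes of the synthetase complex and of the cytosolic phenylalanine synthetase were called higher against the fetus (AIMP1, AIMP2, FARSA and FARSB). Over all probe sets 20.3% were called higher there. AIMP2, a scaffold of the complex, read 135, 74.2 and 106 at 65 dpc, 629, 365 and 503 at 3 days, 189, 136 and 229 at 60 days and 183, 158 and 205 at 120 days. Its 3-day arrays were the highest by far, with 2.04 ± 0.25, adjusted p = 0.0001 against the fetus and -1.33 ± 0.25, adjusted p = 0.025 at 60 days against 3 days. FARSA and FARSB, the subunits of the phenylalanine enzyme, rose by 1.01 ± 0.20 and 0.75 ± 0.22 at 3 days.

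The mitochondrial translation factors, of which 10 were tested, had 6 called higher and 0 lower at 3 days. That was 60% called, beside 43.0% of all probe sets, and the difference was not tested. TUFM, the mitochondrial counterpart of eEF1A, read 379, 354 and 353 at 65 dpc, 794, 984 and 867 at 3 days, 394, 381 and 387 at 60 days and 329, 293 and 368 at 120 days. It was high on the 3-day arrays alone, with 1.23 ± 0.17, adjusted p = 0.000207 against the fetus and -1.14 ± 0.17, adjusted p = 0.00778 at 60 days against 3 days. TSFM, which reloads it, rose at 3 days (1.79 ± 0.21, adjusted p = 7.16e-05), as did QRSL1, part of the enzyme that makes glutaminyl-tRNA in mitochondria (1.55 ± 0.28, adjusted p = 0.00104). GFM1, the mitochondrial translocase, rose by 1.33 ± 0.29.

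Of 5 tested genes of hypusine formation and poly(A) binding (DHPS, PABPC1, PABPC4, PABPN1 and PAIP1), 1 rose and 1 fell at 3 days. That was 40% called, beside 43.0% of all probe sets. DHPS, which starts the hypusine modification of eIF5A, rose (1.2 ± 0.23, adjusted p = 0.00159), and PABPC1, the main poly(A)-binding protein, fell (-0.84 ± 0.23, adjusted p = 0.0111, and -1.46 ± 0.23, adjusted p = 0.000308 at 120 days). In the mTOR pathway, which adjusts protein synthesis to nutrients and growth signals, 2 of 11 rose and 2 fell at 3 days. Those calls were 36.4% of the 11, also below the share of the array. PRKAA2, a catalytic subunit of the energy sensor AMPK, rose (1.03 ± 0.32, adjusted p = 0.0217), and so did TSC1, an inhibitor of the pathway (0.45 ± 0.11, adjusted p = 0.0057). AKT1, an upstream kinase, fell (-0.76 ± 0.24, adjusted p = 0.0233), as did RRAGC, which signals amino acids to mTOR (-0.74 ± 0.23, adjusted p = 0.0202).

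Among 15 genes of the amino acid response 6 rose and 0 fell at 3 days against the fetus. That was 40% called, beside 43.0% of all probe sets, of which 20.3% were higher and 22.6% lower. The rises included ATF3 (2.96 ± 0.88, adjusted p = 0.0172), PSPH (1.57 ± 0.55, adjusted p = 0.036) and PHGDH (1.34 ± 0.15, adjusted p = 5.05e-05), a stress-induced factor and a pair of serine synthesis enzymes. At 120 days 5 rose and 1 fell (40% called, beside 48.4% of all probe sets). ATF4 itself rose (2.03 ± 0.24, adjusted p = 4.52e-05), while its target ASNS fell (-1.68 ± 0.47, adjusted p = 0.0107).

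EIF1AY and EIF1AX encode forms of eIF1A, which acts with eIF1 in scanning, and lie on the Y and X chromosomes in the RefSeq annotation of the pig. EIF1AY read 439, 8.2 and 328 at 65 dpc, 13.1, 12.4 and 451 at 3 days, 10.4, 15.6 and 636 at 60 days and 13.4, 17.2 and 629 at 120 days. It was bright on 5 arrays, 2 of them fetal and 1 at each later stage, and between 8.2 and 17.2 on the other 7. The bright array was replicate 3 at 3, 60 and 120 days. EIF1AX read 1087, 2087 and 829.8 at 65 dpc, 1251, 1161 and 1093 at 3 days, 1931, 1133 and 1393 at 60 days and 1279, 1355 and 1144 at 120 days and showed no such split. Stage contrasts of EIF1AY therefore had an SE of 1.53 on the log2 scale and were not called.

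SRY, a Y-linked gene and the single one on the array of 8 Y-linked or X-inactivation genes looked for afterwards, did not pass the filter on low intensities. It read 11.9 to 25.1 over the 12 arrays and did not split as EIF1AY did. The labels give no sex, and what sets the EIF1AY signal was not tested. The 3-day array with high synthetases was also the EIF1AY-bright one of its stage. At 60 and 120 days the bright array was the highest of its stage for 2 and for 1 of the 13 cytosolic synthetases. In the fetus the dim array, replicate 2, was the highest for 10 of the 13, and the bright replicates 1 and 3 for 1 and 2. A link between EIF1AY and the synthetase values was not tested.

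**Figure D5:**
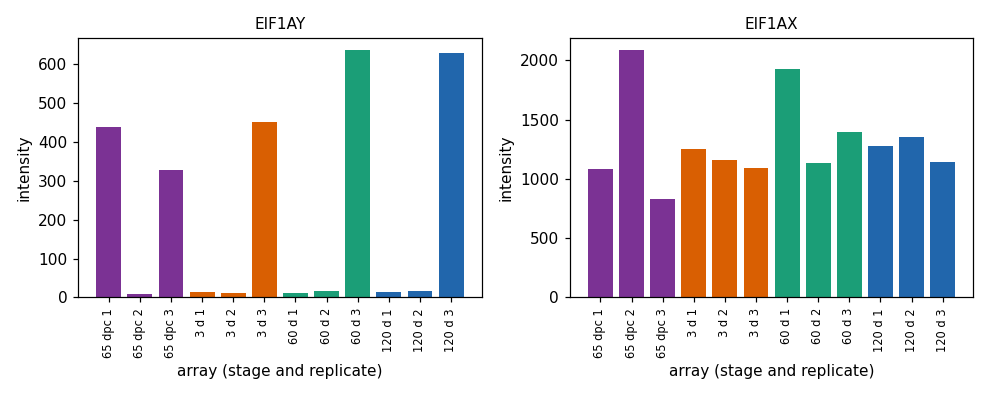
Intensity of EIF1AY on the left and EIF1AX on the right on each of the 12 arrays, in stage order, on linear axes that start at 0. Bars are single arrays, coloured by stage. EIF1AY is above 300 on 5 arrays and at most 17.2 on 7, while EIF1AX lies between 829.8 and 2087 on all 12.

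Where a gene had several probe sets, the brightest did not always speak for the rest. Of 21 genes with more than 1 tested probe set, all probe sets had the same call for 17 at 3 days and for 14 at 120 days against the fetus, and EEF1A1 was the only gene with calls in opposite directions. Of the calls described here, 8 of 17 at 3 days and 11 of 19 at 120 days were kept in each of the 12 fits that left out 1 array. Those at 3 days were EIF1, EIF2S2, EIF3L, EIF4G3, FARS2, IARS2, KARS and SARS. Those at 120 days were EARS2, EEF1A1, EIF1, EIF2B3, EIF2S2, EIF3D, EIF3L, EIF4A1, EIF4A3, EIF4G3 and SARS. Other settings ended some of these calls. Centring on the hybridization controls kept 11 of 17 at 3 days and 12 of 19 at 120 days, where it ended those of EARS2 (adjusted p = 0.119), EIF2B3 and SARS among the 11 just named. Quantile normalization kept 17 and 14, the fit of only the 6 arrays compared kept 11 and 18, and the mean of all probe sets of a gene kept 17 and 16, with the call of EEF1A1 among those ended.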

How the data were processed

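Each sample was 1 Affymetrix porcine array, with 3 arrays at each of 4 stages. The authors deposited linear intensities, 1 per probe set on each array, and the submitters' processing notes name GCOS 1.4. How probes were summarised, corrected for background and scaled is not given in the sources used here. The table held 24123 probe sets. Of 124 control probe sets 123 were left out, and the elongation factor control that the platform annotation names EEF1A1 was kept, since the symbol rule takes it. Of the 61 genes 60 were found in the RefSeq gene table by Entrez identifier, and 0 symbols changed. A further 6 probe sets carried several symbols and were not used.

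Values were transformed as log2(intensity + 21), where 21 is the 25th percentile. A probe set was kept if it exceeded the 40th percentile of its array on at least 3 arrays (16167 of 24000, 67.4%). A single limma model with a mean for each stage and a variance trend was fitted to the 12 arrays (8 residual and 4.26 prior degrees of freedom). P-values are two-sided and adjusted by Benjamini-Hochberg over the 16167, and each log2 change is given with its SE from limma. The fit was tested on simulated data. Nothing beyond the label "biological replicate" says which litters the arrays came from, and their number limits the precision.

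The genes, gene lists, markers, naming rule and most alternatives were set with earlier results of these data known. Values on every array are given for up to 6 called rises and 6 called falls per comparison, up to 2 called genes per role group and 15 named genes, and up to 3 called genes per outside list are given. Interferon-induced genes (8 of 11 on the array) and Y-linked or X-inactivation genes (1 of 8) were looked at afterwards. The analysis was repeated with a pseudocount of 1 or 51, without a filter, with the filter at the 60th percentile, with quantile normalization, centring on hybridization controls, no variance trend, the replicate number as a block, only the 6 arrays compared, the mean of all probe sets of a gene, and leaving out each array. Leaving out fetal replicate 2 and 60-day replicate 1 together was added after seeing the data. The labels do not say whether replicate numbers pair the samples. The deviations of same-numbered arrays correlated between -0.42 and 0.30, and those of differently numbered arrays between -0.41 and 0.65. Replicate 3 had the lowest actin 3-prime to 5-prime ratio of each stage (2.32, 2.58, 3.85 and 4.17). What the numbers stand for was not tested. Software was R 4.3.3, limma 3.58.1, the data.table package, version 1.17.8, matplotlib 3.10.9, pandas 2.3.3 and NumPy 2.4.6 under Python 3.11.15. No promoter or protein sequence was used here.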

Additional observations from a re-analysis of the deposited data

How the results depend on the processing

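Over the fits that each left out 1 array, the number of genes called at 3 days against the fetus ranged from 10 to 19 (higher 7 to 14, lower 2 to 5), and 10 were left without fetal replicate 3. At 120 days against the fetus it ranged from 12 to 20 (higher 7 to 11, lower 5 to 9), and 12 were left without 120-day replicate 2. For the F test it ranged from 14 to 23, and the other steps stayed at 0. Centring on the hybridization controls gave 6 higher and 8 lower at 3 days, and 3 higher and 19 lower at 120 days, because it lowers all later arrays. It, quantile normalization and a pseudocount of 51 each called 1 gene lower at 60 against 3 days, FARS2. Leaving out fetal replicate 2 and 60-day replicate 1 together, chosen after seeing the data, left 3 lower at 3 days.

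Among the called genes and the 15 named ones, the reversed estimates against the fetus, none of them called, were EEF1A1 at 3 days with the mean of all its probe sets (0.094), GARS at 3 days without 3-day replicate 3 (-0.16, in a range to 0.68 over arrays left out), AARS at 120 days with hybridization centring (-0.38) and without fetal replicate 3 (-0.042, in a range to 0.20), and EIF2S1 at 120 days with hybridization centring (-0.32). Over all 59 genes, hybridization centring turned the sign of 10 estimates at 3 days and 19 at 120 days, and quantile normalization of 5 and 2. Except for hybridization centring, whose shift is built in, the cause was not tested. With the replicate number as a block, 13 genes were called at 3 days, 16 at 120 days against the fetus and 17 by the F test. The labels do not say what the numbers stand for, and why calls were lost there was not tested.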
